A study of Rattus norvegicus with 18 samples.

Results

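Coagulation and complement plasma proteins of the rat liver were followed through 42 named genes: clotting factors, fibrinogen chains, anticoagulants, fibrinolysis proteins and complement components. The rule that lists them uses names and functions and no measured value, although it was written with earlier results of these data known. Of the 42 genes, 37 were matched to a probe by RefSeq accession and tested, within 10914 genes tested in all. F5, F11, F13b, C5 and C8g were not matched and were not analysed here. All 37 genes tested were well above background on all 18 arrays, so the filter on dim probes left out none of them.

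The livers came from male F344 rats, purchased when 5 weeks old, and their RNA was measured on Agilent one-colour arrays, with 3 arrays in each of 6 groups. Rats received N-nitrosodiethylamine (DEN), a genotoxic nitrosamine, at 4 mg/kg in saline, or carbon tetrachloride (CCl4), a hepatotoxic solvent that is not genotoxic, at 100 mg/kg in corn oil. Both compounds were given each day by gavage in 5 mL/kg, and livers were taken at day 28 or day 84. Control livers come from the same days; the titles name a vehicle and the treatment protocol speaks of untreated animals fed basal diet, so which vehicle they received, if any, is not given. Compound and vehicle therefore cannot be told apart. The series title concerns genes hypermethylated and down-regulated by nongenotoxic carcinogens of the liver; DNA methylation was not analysed here. The labels number 3 samples per group, and p-values measure the spread between these samples.

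Hepatocytes make most clotting factors and complement proteins and secrete them into the blood. Clotting runs as a cascade of serine proteases that ends with thrombin cutting fibrinogen into fibrin; protein C, antithrombin and tissue factor pathway inhibitor hold it back, and plasmin dissolves the clot. Complement is started by antibody (the classical pathway, through C1q), by sugars on microbes (the lectin pathway) or by spontaneous turnover of C3 (the alternative pathway), and all of these end in a membrane pore built from C5b to C9. Several of these genes are also acute phase genes in rodents, and their promoters are known targets of the liver factors HNF4, FOXA and C/EBP.

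Upstream sequences were taken from RefSeq (build GRCr8), which held 35 windows for 33 of the 42 genes, each from 250 bases before to 50 bases after a start; Fga and Tfpi had a window for each of 2 starts. Each window was searched on both strands for 4 motifs, counting overlapping matches. The letters of HNF1, another liver factor, were not searched, so a window without a match may hold them. TTGCNNAA (C/EBP) lay in 13 of the members' windows (37.1%) and in 10.6% of all 33469 windows. TGTTTAC (FOXA) lay in 6 (17.1%) and in 3.78%, and TTCCNGGAA (STAT3) in 2 (5.71%) and in 1.27%. The 2 windows of Fga overlap and share a C/EBP match. Of the 33 genes with a window, 29 were among the 37 tested. CAAAGTCCA (HNF4) lay in 0% of the members' windows and in 0.391% of all windows. These exact letters are too rare for 35 windows to show a difference. At least 1 motif lay in 48.6% of the members' windows and in 15.4% of all windows, and the members' windows held a median of 4 CpG against 7 in all windows. The 250 bases before the start are printed for 3 genes that were lower with CCl4 on both days and that hold different motifs, and for C1qa, which was called in no treated group on the 75th percentile scale. Each is read 5′ to 3′ on the strand of the gene, and capitals mark motif matches.
F12, chr17:9212569-9212818, plus strand: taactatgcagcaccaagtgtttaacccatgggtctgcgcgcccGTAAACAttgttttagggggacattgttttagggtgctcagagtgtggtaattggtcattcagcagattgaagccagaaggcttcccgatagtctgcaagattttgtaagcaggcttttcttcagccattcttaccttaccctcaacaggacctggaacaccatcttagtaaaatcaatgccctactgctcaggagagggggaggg
Fgb, chr2:170700876-170701125, minus strand: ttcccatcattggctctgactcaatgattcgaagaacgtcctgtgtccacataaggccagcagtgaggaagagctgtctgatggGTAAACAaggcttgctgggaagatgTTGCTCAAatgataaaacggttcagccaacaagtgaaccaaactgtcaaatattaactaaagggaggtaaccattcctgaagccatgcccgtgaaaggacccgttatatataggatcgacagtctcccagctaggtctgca
C6, chr2:55573383-55573632, plus strand: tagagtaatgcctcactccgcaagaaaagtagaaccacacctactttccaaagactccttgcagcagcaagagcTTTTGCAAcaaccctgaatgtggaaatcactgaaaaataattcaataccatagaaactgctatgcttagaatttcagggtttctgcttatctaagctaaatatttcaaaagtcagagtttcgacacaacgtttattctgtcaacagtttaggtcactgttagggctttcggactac
C1qa, chr5:154419934-154420183, minus strand: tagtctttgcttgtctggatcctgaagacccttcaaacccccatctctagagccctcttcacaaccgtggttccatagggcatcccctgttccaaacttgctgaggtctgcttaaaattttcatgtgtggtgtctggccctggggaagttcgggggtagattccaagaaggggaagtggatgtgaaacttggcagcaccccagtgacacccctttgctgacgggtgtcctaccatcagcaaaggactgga
The capitals in F12 are a FOXA match. Fgb carries a FOXA match followed by a C/EBP match, and C6 has 1 C/EBP match. C1qa has no match, which says only that these letters are not in this window. F2, F10, Fgg, Proc, Plg, Serpinf2, Masp1, Mbl1, Mbl2 and Cfi were lower with CCl4 on both days and hold no match to the 4 motifs either. Kng1, which was higher with CCl4 at day 84, holds a C/EBP match. A match describes the sequence; binding was not measured.

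Levels are log2 processed signals minus the log2 of the 75th percentile of the array, and a difference is a log2 fold change on that scale. Genes were called at a Benjamini-Hochberg adjusted p under 0.05 from limma fitted over all 10914 genes and 18 arrays, and every adjusted p in the text is of that kind. Probes well above background made up 47.2% to 57.0% of an array. Set against 8 spike-in probes, the 75th percentile itself was higher in treated than in control livers, by 0.41 (DEN) and 0.80 (CCl4) on day 28, and by 0.70 and 0.55 on day 84. Scaled to the spike-in probes, the median of all genes tested was 0.36, 0.74, 0.63 and 0.45 in the same order, so every value given here is relative to the bulk of the liver's transcripts, and "lower" means lower against that bulk. Arrays lay on 3 slides: replicate 3 of CCl4 at day 28 was hybridised with the day 84 livers, and replicates 2 and 3 of CCl4 at day 84 lay alone on the last slide. That slide was scanned on another day than the rest.

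The labelled tissue was checked against its markers, and all 10 hepatocyte markers were above background in every group. Their summed level, in multiples of the 75th percentile, was 9959 to 10030 in day 28 controls, 8119 to 8234 with DEN and 4238 to 5846 with CCl4. At day 84 it was 8250 to 8629 in controls, 4769 to 5698 with DEN and 4817 to 6364 with CCl4. Hepatocyte markers were thus lower in every group in which most clotting and complement genes were lower: at day 28, 1 of 10 was called lower with DEN and all 10 with CCl4, and at day 84 9 with each compound. Stellate cell and myofibroblast markers went the other way, with 1, 8, 5 and 8 of 10 called higher and 0, 0, 1 and 0 lower in these comparisons, in the same order (3, 10, 8 and 9 higher and 0 lower on the spike-in scale). The median of the 10 hepatocyte markers on the spike-in scale was 0.12, -0.07, 0.02 and -0.03 in that order, with 0, 3, 0 and 2 of the 10 called lower and 1 higher in each comparison on that scale. In bulk liver, fewer hepatocytes and less RNA per hepatocyte cannot be told apart, and the part of cell composition in the results was not tested.

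With CCl4 at day 28 nearly the whole set was lower against the bulk of transcripts: 32 of the 37 genes were called lower (86.5%) and 0 higher, where 33.6% of all genes tested were called lower and 26.1% higher. At an unadjusted p under 0.05 the limma counts were also 32 and 0. The members' median was -0.89, against -0.06 for all genes. C6, a component of the membrane pore, fell most, to 3.66-fold lower, followed by F12 (3.33-fold lower) and Masp1 (3.29-fold lower). On the spike-in scale the members' median was -0.09 and 7 genes were called lower and 6 higher, beside 4.6% lower and 74.3% higher among all genes; F9, F12, Proc, Plg, Cpb2, Masp1 and C6 kept the call. Of the 37 genes, 33 lay below the median of all genes, a position that scaling to the spike-in probes cannot change.

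DEN at day 28 gave few calls. Serpinf2, C3 and Fgb were called lower (3 of 37) and 0 genes were called higher, beside 7.19% and 7.82% of all genes. Limma at an unadjusted p under 0.05 gave 10 lower and 1 higher. Fitted on only the DEN and control livers of that day, limma called 13 lower, beside 7.91% of all genes. In 27 of the 37 genes the 3 DEN livers all lay below the 3 controls, as they did in 25.8% of all genes. The median was -0.23, against -0.04 for all genes, and turned to 0.18 on the spike-in scale, where 0 were called lower and 4 higher, beside 0.641% and 32.6% of all genes. The count of 3 fell to 0 without control replicate 1 or without DEN replicate 1, to 1 without control replicate 3 or DEN replicate 2, and to 2 without control replicate 2 or DEN replicate 3.

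At day 84 31 of the 37 genes (83.8%) were called lower with DEN and 1, Tfpi, higher, where 31.1% and 21.6% of all genes were called. The median was -0.74 against -0.08 for all genes. CCl4 at day 84 gave 28 lower (75.7%) and 3 higher (Kng1, Tfpi and C1qc), beside 36.3% lower and 28% higher among all genes, with a median of -0.64 against -0.10. On the spike-in scale these medians were -0.04 and -0.09, with 4 lower and 4 higher for DEN (2.68% and 68.7% of all genes) and 10 lower and 9 higher for CCl4 (6.63% and 53.8% of all genes). Serpinf2, Mbl2, Masp1 and C6 were among those still lower with both. F9, F12, Proc, Plg, Masp2 and C8b were also still lower with CCl4. Quantile normalization left 26, 26 and 18 genes lower with CCl4 at day 28, DEN at day 84 and CCl4 at day 84, beside 27%, 25.5% and 29.9% of all genes. With slide as a block, CCl4 at day 84 gave 24 lower and 2 higher, beside 31.9% and 22.1% of all genes.

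**Figure D1:**
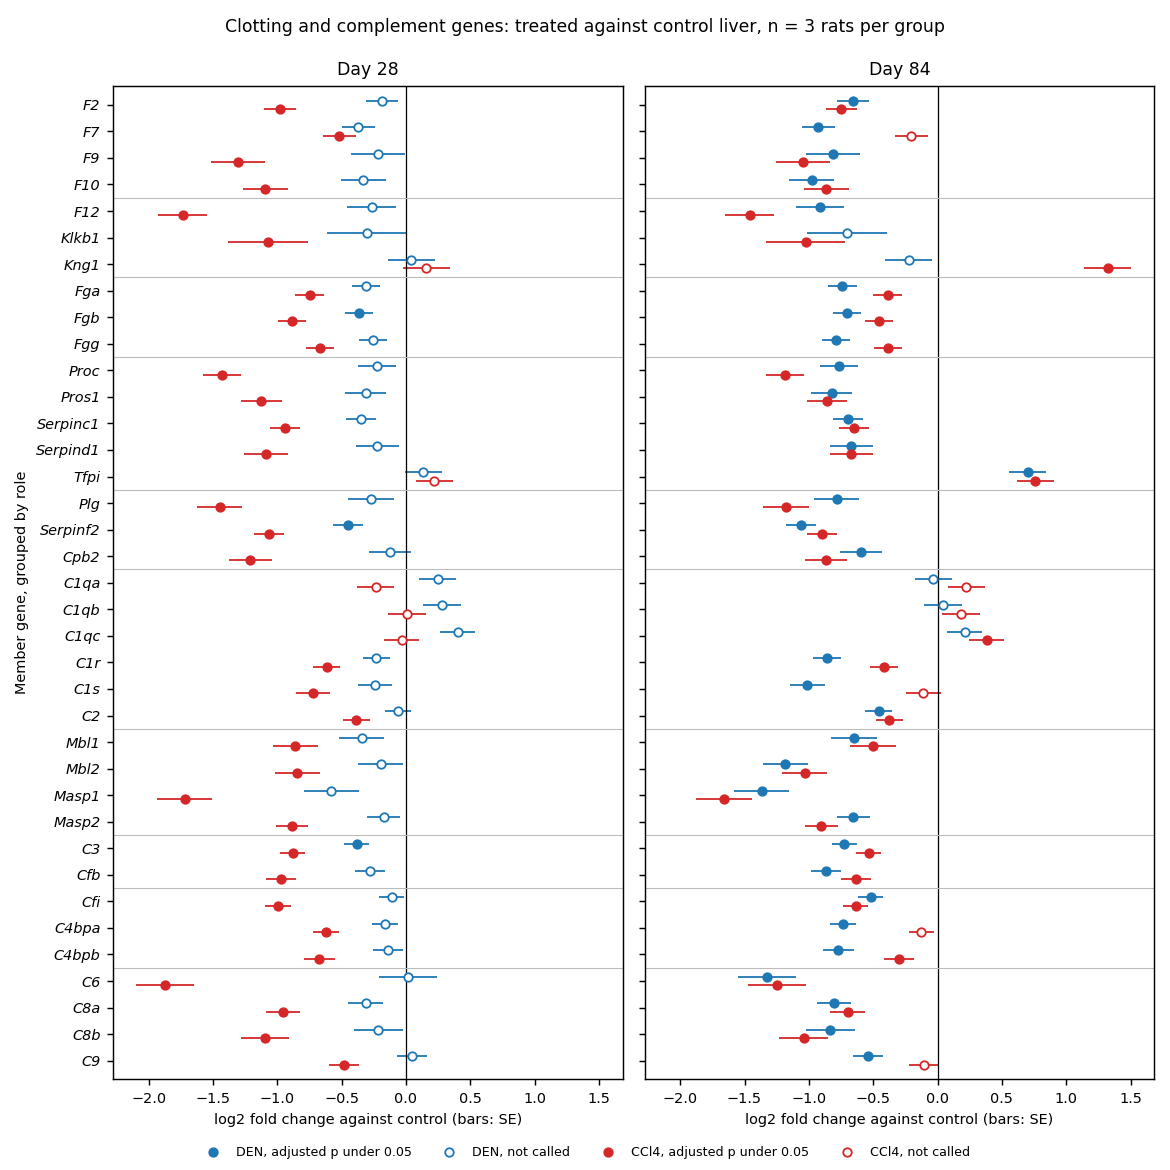
Log2 fold change against the control livers of the same day (x axis, scaled to the 75th percentile; bars are SE, n = 3 per group) for the 37 genes tested, ordered by role (y axis), with DEN in blue, CCl4 in red and called genes filled. For CCl4 at day 28, 32 points are called lower (7 when scaled to the spike-in probes); with DEN the points move left between day 28 (3 lower, 0 on the spike-in scale) and day 84 (31 lower, 4 on that scale), and Kng1 and Tfpi stand to the right of 0 at day 84 with CCl4.

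The shift was also taken liver by liver. Measured as the median of the 37 genes minus the control mean of the day, the 3 DEN livers of day 28 lay at -0.27, -0.21 and -0.21 and the 3 CCl4 livers at -0.82, -1.23 and -0.73. At day 84 the DEN livers lay at -0.68, -0.95 and -0.59 and the CCl4 livers at -0.67, -0.44 and -0.70. Replicate 2 was the lowest of the CCl4 livers at day 28 and of the DEN livers at day 84, and was the highest of the CCl4 livers at day 84. Across the 4 comparisons with control, 3 genes (Fgb, Serpinf2 and C3) were called lower in all, 2 (C1qa and C1qb) in none, and 28 were lower with CCl4 on both days. Among all genes these shares were 4.11%, 16.9% and 27.1%. Of those 28, Klkb1 alone was called lower with DEN at neither day. Its change with DEN at day 84 was nevertheless -0.705, near the members' median of -0.74. Those DEN livers (3.08 to 3.46) all lay below their controls (3.90 to 4.26). The comparisons of a day share their control livers.

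**Figure D2:**
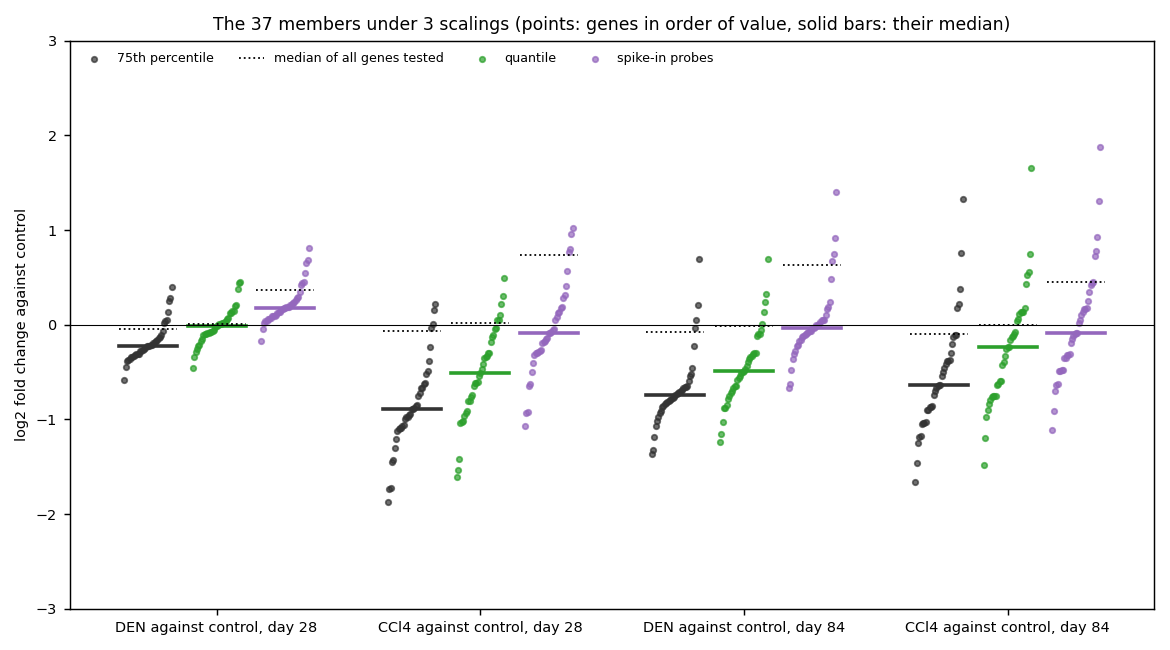
Log2 fold change against control (y axis) of each of the 37 genes in the 4 comparisons (x axis) under scaling to the 75th percentile, quantile normalization and scaling to spike-in probes; solid bars are the medians of the 37 genes and dotted bars those of all 10914 genes. The members' median for CCl4 at day 28 moves from -0.89 to -0.51 and -0.09, while the median of all genes moves as well.

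The vitamin K-dependent procoagulants are serine protease zymogens that need gamma-carboxylation to bind membranes. All 4 (F2, prothrombin; F7, which pairs with tissue factor; F9; and F10, which cuts prothrombin) were called lower with CCl4 at day 28 and with DEN at day 84. After 28 days of CCl4 the changes ran from -1.30 ± 0.21 (SE) for F9 to -0.52 ± 0.13 for F7, with a median of -1.04 that became -0.24 on the spike-in scale, where F7 turned to 0.28. After 84 days of DEN they ran from -0.98 ± 0.18 for F10 to -0.66 ± 0.12 for F2, with F2 turning to 0.05 on the spike-in scale. After 84 days of CCl4, F2, F9 and F10 were lower (-0.75, -1.04 and -0.87), and F7 was not called at -0.20 ± 0.13 (adjusted p = 0.178). None of the 4 was called with DEN at day 28, where the median was -0.28 and turned to 0.13 on the spike-in scale.

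Of the contact system, F12 (Hageman factor) and Klkb1 (plasma prekallikrein) were lower with CCl4, and Kng1 (a rat kininogen with near-identical copies) was not. F12 stood at 7.64, 7.59 and 7.66 in day 28 controls, at 7.33, 7.39 and 7.37 with DEN and at 6.09, 5.30 and 6.29 with CCl4. At day 84 it was 7.50, 7.62 and 7.54 in controls, 6.69, 6.42 and 6.81 with DEN and 6.13, 6.25 and 5.89 with CCl4. No treated liver reached a control liver of its day, and the CCl4 livers lay below the DEN livers on both days. The change was -1.74 ± 0.19 with CCl4 at day 28 (adjusted p = 5.04e-06), and at day 84 it was -0.91 ± 0.19 with DEN and -1.46 ± 0.19 with CCl4 (adjusted p = 1.68e-05). Klkb1 changed by -1.07 ± 0.31 and -1.02 ± 0.31 with CCl4 at days 28 and 84. Its call at day 84 was lost without CCl4 replicate 3 (-0.77, adjusted p = 0.0548).

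Kng1 rose with CCl4 at day 84 by 1.32 ± 0.18 (2.50-fold, adjusted p = 2.85e-05), the largest rise among the 37 genes. Its levels were 7.40, 7.19 and 7.52 in day 28 controls, 7.42, 7.40 and 7.41 with DEN and 7.57, 7.90 and 7.11 with CCl4. At day 84 they were 7.51, 7.61 and 7.68 in controls, 7.39, 7.34 and 7.40 with DEN and 8.94, 9.28 and 8.55 with CCl4. The 3 CCl4 livers of day 84 stood above every other liver. The rise was 1.34 within the slide that held CCl4 replicate 1 and all controls of that day. A second Kng1 probe gave 1.63. The rat has near-identical kininogen genes, so the copy measured is uncertain. With CCl4 at day 84 Kng2 rose by 1.12 ± 0.19 (adjusted p = 0.000157) and Kng2l1 stood at -0.10 ± 0.10. Kng2l1 was called lower with CCl4 at day 28 (-0.58 ± 0.10, adjusted p = 0.000185) and with DEN at day 84 (-0.36 ± 0.10, adjusted p = 0.00739). Kng2 was called in neither of these. Both copies were looked up after the Kng1 values were seen.

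The fibrinogen chains Fga, Fgb and Fgg, which assemble into the clot's structural protein, moved together. All 3 were lower with CCl4 on both days and with DEN at day 84, and Fgb was also called lower with DEN at day 28. That Fgb call was lost on leaving out any 1 of the 6 arrays (-0.39 to -0.33, adjusted p = 0.0575 to 0.116), and its value turned to 0.04 on the spike-in scale. Scaled to the spike-in probes, their median turned from -0.75 to 0.05 with CCl4 at day 28 and from -0.39 to 0.16 with CCl4 at day 84. It stayed below 0, at -0.04, with DEN at day 84, and none of the 3 chains was called lower on that scale.

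Fga levels were 9.22, 9.30 and 9.31 in day 28 controls, 8.95, 8.99 and 8.96 with DEN and 8.62, 8.41 and 8.57 with CCl4. Day 84 gave Fga levels of 9.13, 9.01 and 8.93 in controls, 8.37, 8.03 and 8.44 with DEN and 8.46, 8.86 and 8.58 with CCl4. Every treated liver lay below the controls of its day. Fgb levels were 10.31, 10.41 and 10.28 in day 28 controls, 9.97, 9.99 and 9.95 with DEN and 9.52, 9.31 and 9.51 with CCl4. Day 84 gave Fgb levels of 10.02, 10.03 and 9.96 in controls, 9.32, 9.16 and 9.40 with DEN and 9.30, 9.83 and 9.52 with CCl4. Treated livers did not overlap the controls of their day, and CCl4 replicate 2 of day 84 came nearest to its controls for all 3 chains. Fgg levels were 9.41, 9.49 and 9.48 in day 28 controls, 9.19, 9.25 and 9.18 with DEN and 8.90, 8.65 and 8.83 with CCl4. Day 84 gave Fgg levels of 9.35, 9.25 and 9.11 in controls, 8.56, 8.28 and 8.49 with DEN and 8.67, 9.10 and 8.79 with CCl4. The closest pair was a control at 9.11 and the CCl4 liver at 9.10. With CCl4 the changes of the chains were -0.75, -0.89 and -0.67 at day 28 and -0.39, -0.45 and -0.38 at day 84. With DEN at day 84 they were -0.74, -0.71 and -0.79, each with an SE of 0.11.

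Anticoagulants were lower with CCl4 at both days and with DEN at day 84, except for Tfpi. Proc (protein C, which inactivates factors Va and VIIIa), Pros1 (protein S, its cofactor), Serpinc1 (antithrombin) and Serpind1 (heparin cofactor II) were each called lower in these 3 comparisons. Pros1 with CCl4 at day 28 changed by -1.12 ± 0.16, Serpinc1 by -0.94 ± 0.12 and Serpind1 by -1.09 ± 0.17. The 3 changes with DEN at day 84 were -0.82, -0.69 and -0.67, of which those of Serpinc1 and Serpind1 turned to 0.01 and 0.03 on the spike-in scale.

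Proc is 1 of 4 genes that the study is known to have followed up as lowered by CCl4, so its fall in these livers is not independent evidence. Proc levels were 8.66, 8.60 and 8.56 in day 28 controls, 8.40, 8.37 and 8.38 with DEN and 7.37, 6.75 and 7.42 with CCl4. Day 84 gave 8.43, 8.45 and 8.38 in controls, 7.64, 7.47 and 7.85 with DEN and 7.20, 7.41 and 7.09 with CCl4. All treated livers lay below the controls of their day, and CCl4 livers below DEN livers. The change was -1.43 ± 0.15 with CCl4 at day 28 (2.69-fold lower, adjusted p = 3.4e-06) and -1.19 ± 0.15 at day 84 (2.27-fold lower, adjusted p = 1.26e-05). With DEN it was -0.23 ± 0.15 at day 28 (adjusted p = 0.315) and -0.76 ± 0.15 at day 84 (1.70-fold lower, adjusted p = 0.000777). A second Proc probe gave -1.50 and -1.34 with CCl4 and -0.72 with DEN at day 84. Scaled to the spike-in probes, Proc was -0.63 and -0.64 with CCl4, called on both days, and -0.06 with DEN at day 84, not called.

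Tfpi, which blocks tissue factor with factor VIIa and is made largely by endothelium, was higher at day 84. Its levels were -0.87, -1.25 and -0.86 in day 28 controls, -0.72, -0.85 and -0.99 with DEN and -0.89, -0.57 and -0.86 with CCl4. Day 84 gave -1.29, -1.14 and -1.16 in controls, -0.49, -0.31 and -0.69 with DEN and -0.17, -0.62 and -0.52 with CCl4. The groups overlapped at day 28, and at day 84 the livers of both compounds lay above the controls and overlapped each other. The change was 0.70 ± 0.14 with DEN (1.62-fold, adjusted p = 0.00124) and 0.76 ± 0.14 with CCl4 (1.69-fold, adjusted p = 0.0004) at day 84. Of 8 sinusoidal endothelium markers tested, 1 was called higher and 4 lower with DEN at day 84, and 0 higher and 4 lower with CCl4; on the spike-in scale these counts turned to 4 and 0, and 3 and 1. The part of endothelium in the Tfpi values was not tested. Tfpi is a dim probe here, and its 2 other probes were above background on 10 of 18 arrays.

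The fibrinolysis proteins Plg (plasminogen), Serpinf2 (alpha-2-antiplasmin, which inhibits plasmin) and Cpb2 (a carboxypeptidase that protects fibrin from plasmin) were lower in the same 3 comparisons. Plg changed by -1.45 ± 0.18 and -1.18 ± 0.18 with CCl4 at days 28 and 84 and by -0.78 ± 0.18 with DEN at day 84. Cpb2 changed by -1.21, -0.87 and -0.60 in the same order, and the last of these turned to 0.11 on the spike-in scale. The protease precursor and both proteins that restrain it were lower together, and on the spike-in scale their median was -0.41 and -0.35 with CCl4 at days 28 and 84 and -0.08 with DEN at day 84.

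Serpinf2 was among the 3 genes lower in every comparison with control. Its levels were 7.30, 7.19 and 7.28 in day 28 controls, 6.75, 6.83 and 6.83 with DEN and 6.34, 5.95 and 6.29 with CCl4. Day 84 gave 7.28, 7.16 and 7.07 in controls, 6.12, 5.96 and 6.24 with DEN and 6.29, 6.46 and 6.06 with CCl4. No treated liver overlapped its controls. With DEN the change was -0.45 ± 0.12 at day 28 (adjusted p = 0.0211) and -1.06 ± 0.12 at day 84 (2.09-fold lower, adjusted p = 1.02e-05). With CCl4 it was -1.06 ± 0.12 and -0.90 ± 0.12. Its call with DEN at day 28 was lost on leaving out control replicate 1, control replicate 3 or DEN replicate 1 (-0.44 to -0.43).

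The classical pathway split by gene. The 3 chains of C1q, the recognition molecule, were called lower in no comparison with control, whereas C1r and C1s, its proteases, and C2, part of the C3 convertase, were lower with CCl4 at day 28 and with DEN at day 84. C1r changed by -0.62 ± 0.11 with CCl4 at day 28 and C1s by -0.72 ± 0.13, which became 0.18 and 0.08 on the spike-in scale. With DEN at day 84 they changed by -0.86 ± 0.11 and -1.01 ± 0.13. C1r with CCl4 at day 84 was at -0.42 ± 0.11, called lower (0.13 on the spike-in scale), and C1s at -0.11 ± 0.13, not called. C2 changed by -0.39, -0.46 and -0.37 in these 3 comparisons, and on the spike-in scale by 0.41, 0.24 and 0.18.

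C1qa stood at 5.55, 5.59 and 5.70 in day 28 controls, at 5.84, 5.83 and 5.91 with DEN and at 5.58, 5.49 and 5.06 with CCl4. At day 84 C1qa was 5.29, 5.44 and 5.24 in controls, 5.36, 5.14 and 5.37 with DEN and 5.39, 5.36 and 5.89 with CCl4. Its DEN livers of day 28 lay above their controls, and all other treated groups overlapped theirs. C1qb stood at 6.57, 6.68 and 6.84 in day 28 controls, at 6.97, 6.94 and 7.0 with DEN and at 6.70, 6.96 and 6.44 with CCl4. At day 84 C1qb was 6.49, 6.57 and 6.38 in controls, 6.51, 6.41 and 6.66 with DEN and 6.44, 6.52 and 7.02 with CCl4. Replicate 3 of CCl4 was the lowest of its group at day 28 and the highest at day 84 for both chains. C1qc stood at 3.10, 3.22 and 3.36 in day 28 controls, at 3.69, 3.47 and 3.73 with DEN and at 3.39, 3.28 and 2.92 with CCl4. At day 84 C1qc was 3.06, 3.23 and 2.99 in controls, 3.40, 3.17 and 3.36 with DEN and 3.41, 3.30 and 3.72 with CCl4. For C1qc the CCl4 livers of day 84 lay above their controls. The DEN livers of day 28 lay above their controls for C1qb and C1qc, as for C1qa.

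Across the 3 chains, changes with DEN at day 28 were 0.25 ± 0.15, 0.28 ± 0.15 and 0.40 ± 0.14 for C1qa, C1qb and C1qc, none of them called (adjusted p = 0.263, 0.214 and 0.0609). With CCl4 at day 28 they were -0.24, 0.00 and -0.03, with 95% intervals of -0.55 to 0.08, -0.31 to 0.32 and -0.33 to 0.26. With CCl4 at day 84 they were 0.22, 0.18 and 0.38, and C1qc was called higher (adjusted p = 0.0242). That call was lost without control replicate 1, control replicate 3 or CCl4 replicate 3 (0.26 to 0.37) and with slide as a block (0.31, adjusted p = 0.14). C1q is made chiefly by macrophages. Of 15 macrophage markers tested, day 28 gave 4 higher and 1 lower for DEN and 4 and 7 for CCl4, and day 84 gave 3 and 2 for DEN and 5 and 6 for CCl4. On the spike-in scale the counts were 8 and 1, 7 and 3, 9 and 1, and 9 and 4, and all 3 chains were called higher in all 4 comparisons (0.56 to 0.93). The summed level of these markers on day 28 was 216.6 to 270.2 in controls, 253.2 to 265.6 with DEN and 163.1 to 196.4 with CCl4. On day 84 it was 210.8 to 233.8, 147.3 to 190.7 and 178.9 to 221.4. The part of macrophage number in the C1q values was not tested.

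The lectin pathway genes moved together: Mbl1 and Mbl2, mannose-binding lectins, and Masp1 and Masp2, the proteases they activate, were all called lower with CCl4 at both days and with DEN at day 84. The medians were -0.87, -0.97 and -0.92, and -0.07, -0.42 and -0.22 on the spike-in scale, where Mbl1 turned to 0.05 at day 84 with either compound and Masp2 to 0.05 with DEN. Mbl1 changed by -0.86, -0.50 and -0.65 and Masp2 by -0.89, -0.90 and -0.65 in the same order. The Mbl1 call with CCl4 at day 84 was lost without control replicate 2, control replicate 3 or CCl4 replicate 3 (-0.49 to -0.42).

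Masp1 stood at 4.50, 4.51 and 4.45 in day 28 controls, at 3.78, 4.04 and 3.88 with DEN and at 2.96, 2.15 and 3.19 with CCl4. At day 84 Masp1 was 4.33, 4.30 and 4.22 in controls, 2.91, 2.57 and 3.26 with DEN and 2.47, 2.79 and 2.61 with CCl4. Every treated liver lay below every control, and at day 28 the CCl4 livers lay below the DEN livers. The change was -1.72 ± 0.21 with CCl4 at day 28, -1.37 ± 0.21 with DEN and -1.66 ± 0.21 with CCl4 at day 84 (3.29-fold, 2.58-fold and 3.16-fold lower). With DEN at day 28 it was -0.58 ± 0.21 (adjusted p = 0.0812). The 3 other Masp1 probes gave smaller changes with CCl4 at day 28, of -0.96, -1.28 and -1.21. Mbl2 stood at 4.99, 4.74 and 4.73 in day 28 controls, at 4.64, 4.60 and 4.63 with DEN and at 4.09, 3.59 and 4.24 with CCl4. At day 84 Mbl2 was 4.85, 4.68 and 4.73 in controls, 3.71, 3.13 and 3.88 with DEN and 3.74, 3.67 and 3.75 with CCl4. Treated and control livers did not overlap on either day. The change at day 84 was -1.18 ± 0.17 with DEN (2.27-fold lower, adjusted p = 0.0001) and -1.03 ± 0.17 with CCl4.

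C3, on which all complement routes converge, was lower in every comparison with control. Its levels were 10.28, 10.23 and 10.24 in day 28 controls, 9.84, 9.84 and 9.93 with DEN and 9.42, 9.16 and 9.52 with CCl4. Day 84 gave C3 levels of 10.05, 10.06 and 10.01 in controls, 9.34, 9.21 and 9.40 with DEN and 9.39, 9.70 and 9.41 with CCl4. All treated livers were below all controls. Day 28 changes were -0.38 ± 0.10 (DEN) and -0.88 ± 0.10 (CCl4), and day 84 changes were -0.72 ± 0.10 and -0.54 ± 0.10. The 4 values on the spike-in scale were 0.02, -0.08, -0.02 and 0.01, so the fall of C3 was relative to the other transcripts. The DEN call at day 28 was lost without control replicate 1, DEN replicate 1 or DEN replicate 2 (-0.37). Cfb, factor B of the alternative pathway, changed by -0.97 ± 0.12 with CCl4 at day 28, and by -0.87 ± 0.12 with DEN and -0.63 ± 0.12 with CCl4 at day 84.

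Complement inhibitors and the terminal pathway included the smallest and the largest falls. Cfi (factor I, which cleaves C3b and C4b) changed by -0.99 ± 0.10 with CCl4 at day 28, -0.52 ± 0.10 with DEN at day 84 (0.18 on the spike-in scale) and -0.64 ± 0.10 with CCl4 at day 84. C4bpa and C4bpb, the chains of C4b-binding protein, changed by -0.62 and -0.67 with CCl4 at day 28 and by -0.73 and -0.77 with DEN at day 84; on the spike-in scale the CCl4 values turned to 0.18 and 0.13. C4bpa was not called with CCl4 at day 84 (-0.13 ± 0.10, 95% interval -0.34 to 0.09). C4bpb was called lower there at -0.30 ± 0.12 (0.25 on the spike-in scale), and the call was lost without any 1 of control replicates 1, 2 and 3 and CCl4 replicates 1 and 3 (-0.31 to -0.24). A second C4bpb probe, above background on all 18 arrays, gave 0.01 with CCl4 at day 84 and so showed no fall.

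Among the pore proteins, C8a and C8b changed by -0.95 ± 0.13 and -1.10 ± 0.19 with CCl4 at day 28, by -0.80 and -0.83 with DEN and by -0.70 and -1.04 with CCl4 at day 84. C9 changed by -0.48 ± 0.12 with CCl4 at day 28 and -0.54 ± 0.12 with DEN at day 84, which turned to 0.32 and 0.16 on the spike-in scale, and was not called with CCl4 at day 84 (-0.10 ± 0.12). C6 stood at 5.57, 5.40 and 6.19 in day 28 controls, at 5.70, 5.69 and 5.83 with DEN and at 3.95, 3.63 and 3.97 with CCl4. At day 84 C6 was 6.03, 6.0 and 5.84 in controls, 4.85, 4.08 and 4.98 with DEN and 4.89, 4.78 and 4.46 with CCl4. DEN livers sat within the range of the controls at day 28 and below them at day 84. The change was -1.87 ± 0.23 with CCl4 at day 28 (adjusted p = 1.18e-05), and at day 84 it was -1.32 ± 0.23 with DEN (adjusted p = 0.000308) and -1.25 ± 0.23 with CCl4 (adjusted p = 0.000259). With DEN at day 28 it was 0.02 ± 0.23.

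**Figure D3:**
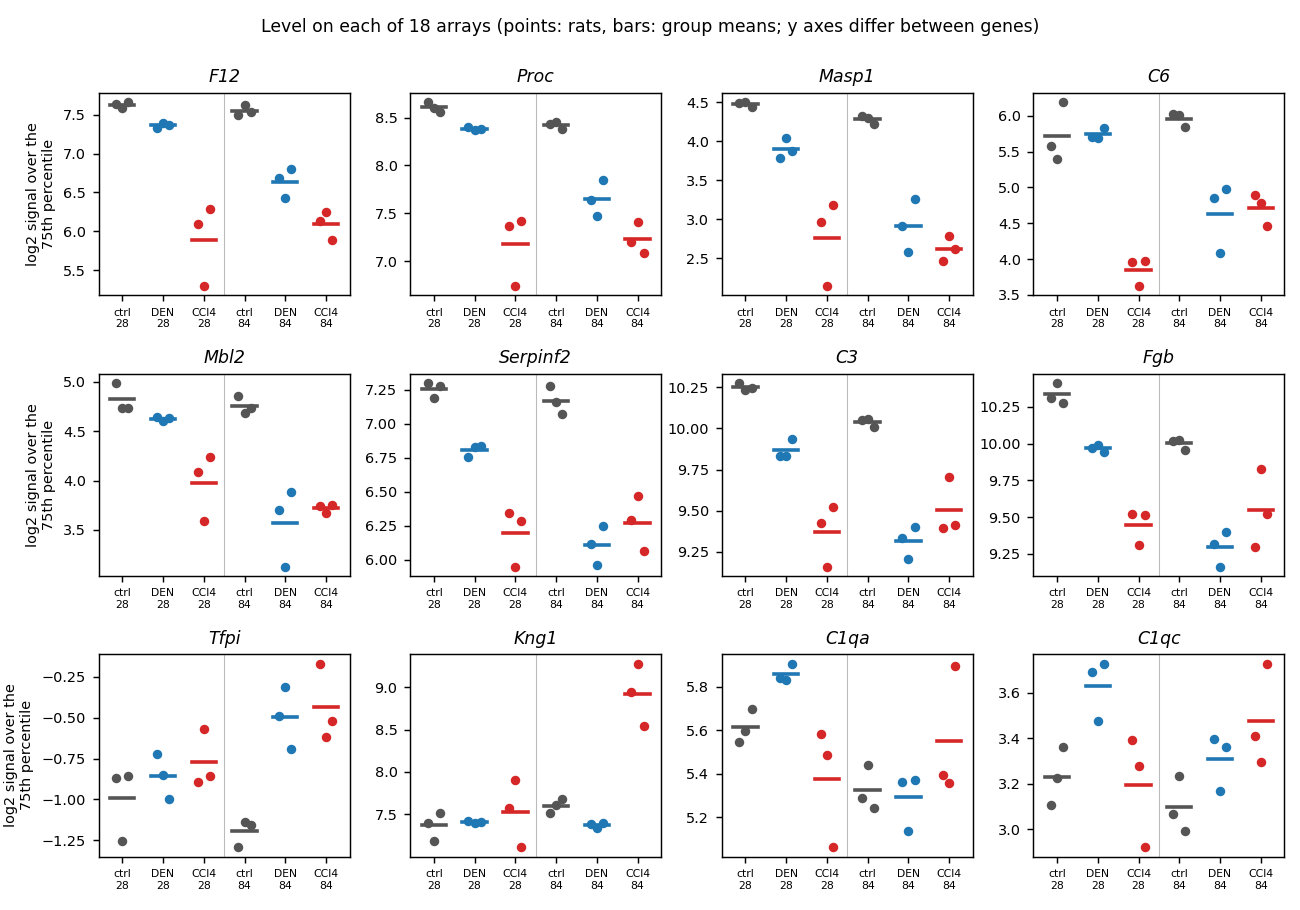
Level of 12 genes on each of the 18 arrays (y axis, log2 signal over the 75th percentile of the array, with a scale of its own for each gene; x axis, group and day); points are livers and bars are means of 3. F12, Proc and C6 have their lowest group mean with CCl4 at day 28, Kng1 stands apart with CCl4 at day 84 (8.55 to 9.28), and C1qa overlaps its controls in all treated groups but DEN at day 28.

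The compounds were also set against each other, at doses that differ in weight and vehicle. At day 28, 32 of the 37 genes were lower with CCl4 than with DEN and 0 were higher (limma counts at an unadjusted p under 0.05 were 33 and 0), beside 24.7% lower and 20.4% higher among all genes. The median difference was -0.61, and C6 (-1.89 ± 0.23), F12 (-1.47 ± 0.19) and Proc (-1.20 ± 0.15) differed most. On the spike-in scale 14 genes were called lower and 0 higher, beside 5.8% and 40.4% of all genes, and the values of C1r and C2 turned to 0.01 and 0.07. The calls of C1qa, C1qc, C2 and Mbl1 were each lost without CCl4 replicate 2 or 3 or a DEN replicate (values from -0.52 to -0.20).

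At day 84 fewer of the 37 genes differed between the compounds, 11 where day 28 gave 32. CCl4 livers were higher than DEN livers for 9 genes (24.3%) and lower for 2 (5.41%), beside 18.5% and 15.8% of all genes. The share called higher thus lay near that of all genes. The median difference was 0.11, against 0.00 for all genes. The 9 were Kng1 (1.55 ± 0.18), C1s (0.90 ± 0.13), F7 (0.72 ± 0.13), C4bpa (0.61 ± 0.10), C4bpb (0.47 ± 0.12), C1r (0.45 ± 0.11), C9 (0.44 ± 0.12), Fgg (0.41 ± 0.11) and Fga (0.35 ± 0.11). F12 (-0.55 ± 0.19) and Proc (-0.42 ± 0.15) were lower. Only CCl4 replicate 1 shared a slide with the DEN livers: with slide as a block 4 of the 11 were called (Kng1, C1s, F7 and C4bpa). On that slide alone the CCl4 group is 1 array, assumed to vary like the other groups, and 1 of the 11 was called, Kng1 (1.57). There C1s was at 0.90, F7 at 0.68, F12 at -0.51 and Proc at -0.45, and Fga and Fgg were at 0.18 and 0.22. The calls of F12 and Proc were each lost without DEN replicate 1, DEN replicate 3, CCl4 replicate 1 or CCl4 replicate 3 (-0.57 to -0.45 for F12 and -0.43 to -0.32 for Proc). Those of Fga and Fgg were lost without DEN replicate 2 or CCl4 replicate 2 (0.23 to 0.24 for Fga and 0.28 to 0.33 for Fgg).

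Change over time was tested within each treatment. In controls 0 of the 37 genes were called between day 84 and day 28, beside 4.44% higher and 5.32% lower among all genes; limma gave 4 lower and 0 higher at an unadjusted p under 0.05, and the median was -0.13. The effect of DEN at day 84 minus that at day 28 was called below 0 for 10 genes and above 0 for 0 (25 and 1 at an unadjusted p under 0.05), beside 8.41% and 7.64% of all genes, with a median of -0.51. Fitted on only the groups compared, limma called 27 genes below 0, beside 12.6% of all genes. C6 (-1.34 ± 0.32, adjusted p = 0.0138), Mbl2 (-0.99 ± 0.25), C1s (-0.77 ± 0.19), C1r (-0.63 ± 0.15) and C4bpa (-0.57 ± 0.14) were among the 10. None (0) were called when scaled to the spike-in probes. The count was 5 without DEN replicate 3 of day 28, control replicate 1 of day 84 or DEN replicate 2 of day 84. It was 6 without DEN replicate 2 of day 28 and 16 without DEN replicate 3 of day 84. The effect of CCl4 differed between the days for 1 gene, Kng1 (1.16 ± 0.26, adjusted p = 0.0177), and for 0 in the other direction, beside 3.51% higher and 2.52% lower among all genes, with a median of 0.29. At an unadjusted p under 0.05 it was above 0 for 12 genes and below 0 for 0. The count of 1 became 2 without CCl4 replicate 1 or 2 of day 28 and 3 without CCl4 replicate 1 of day 84, and 0 on the spike-in scale or with slide as a block.

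Genes around the 37 went both ways. Of 18 other clotting and fibrinolysis genes tested, 0 were higher and 1 lower with DEN at day 28, 5 and 9 with CCl4 at day 28, 5 and 7 with DEN at day 84, and 7 and 9 with CCl4 at day 84. F3 (tissue factor, which starts clotting) rose with CCl4 at day 84 by 2.20 ± 0.29, Thbd (thrombomodulin, which turns thrombin towards protein C activation) by 1.82 ± 0.16 and Procr (the endothelial protein C receptor) by 1.87 ± 0.23. Proc itself was at -1.19 in those livers. Apoh, a plasma glycoprotein, changed by -1.37, -0.79 and -1.18 and Serpina5, the protein C inhibitor, by -1.25, -0.25 and -0.83 with CCl4 at day 28, DEN at day 84 and CCl4 at day 84, of which the Serpina5 value with DEN was not called and turned to 0.46 on the spike-in scale. On that scale 4 and 0, 9 and 3, 12 and 0, and 10 and 2 of the 18 were higher and lower in the 4 comparisons.

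In the vitamin K cycle, Vkorc1, the reductase that warfarin blocks, was lower in all 4 comparisons: at day 28 by -0.51 ± 0.11 (DEN) and -1.07 ± 0.11 (CCl4), and at day 84 by -1.04 ± 0.11 and -0.99 ± 0.11. Ggcx, the carboxylase that modifies F2, F7, F9, F10 and Proc, was called in none, at -0.16, 0.00, -0.06 and -0.06; on the spike-in scale it was at 0.24, 0.80, 0.64 and 0.49, whereas Vkorc1 stayed below 0 (-0.10, -0.27, -0.34 and -0.44). Nqo1, a quinone reductase and NRF2 target, rose by 4.91 ± 0.24 with DEN at day 84 and was not called with DEN at day 28 (0.53 ± 0.24). Its level with CCl4 minus that with DEN was 0.73 ± 0.24 at day 28 and -2.60 ± 0.24 at day 84, both called. Of the 4 genes of the cycle tested, 0, 2, 1 and 1 were called higher in the 4 comparisons with control, and 1 lower in each. On the spike-in scale 1, 3, 3 and 3 were higher and 0, 0, 1 and 1 lower.

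Of 15 other complement genes tested, 2 were higher and 1 lower with DEN at day 28, 6 and 8 with CCl4 at day 28, 2 and 5 with DEN at day 84, and 6 and 6 with CCl4 at day 84. Serping1 (the C1 inhibitor) changed by -1.08, -0.83 and -0.74 in the last 3 comparisons, and by -0.28, -0.13 and -0.19 on the spike-in scale. C4a was at -0.99 and -1.25 with CCl4 at day 28 and DEN at day 84, and was not called with CCl4 at day 84 (-0.29 ± 0.14). C4 copies are near-identical, so the C4a value is uncertain. Fcna, a ficolin of macrophages, changed by -1.99 and -1.43 with CCl4, and C5ar1, the C5a receptor of myeloid cells, by 1.40 and 1.75. On the spike-in scale 5 and 0, 7 and 3, 7 and 1, and 6 and 3 of the 15 were higher and lower.

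Of 15 liver transcription factors tested, 3, 9, 12 and 10 were called lower and 1, 2, 0 and 2 higher with DEN and CCl4 at day 28 and DEN and CCl4 at day 84, which became 1, 4, 1 and 6 lower and 3, 4, 2 and 3 higher on the spike-in scale. Hnf4a changed by -0.67, -1.47, -0.61 and -1.03 in that order, Cebpa by -0.56, -1.29, -0.89 and -1.23, and Cebpb by -1.11, -1.67, -0.69 and -1.49, all called. Hnf4a and Cebpb with DEN at day 84 turned to 0.10 and 0.01 on the spike-in scale, and with CCl4 they stayed lower there (-0.67 and -0.87 at day 28, -0.48 and -0.94 at day 84). Of 14 interleukin 6 and acute phase genes tested, 3, 11, 10 and 9 were lower and 1, 1, 0 and 2 higher; on the spike-in scale 0, 3, 0 and 5 were lower and 1, 4, 3 and 5 higher. Itih3, a hyaluronan-binding plasma protein, was among the lower ones (-0.47, -1.23, -0.93 and -0.85). Il6r, the interleukin 6 receptor, changed by -2.61 with CCl4 at day 28 and -1.37 at day 84. Lbp, a lipopolysaccharide-binding acute phase protein, rose by 1.85 ± 0.19 and 2.29 ± 0.19 with CCl4 on these days and was not called with DEN (-0.12 and 0.22).

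**Figure D4:**
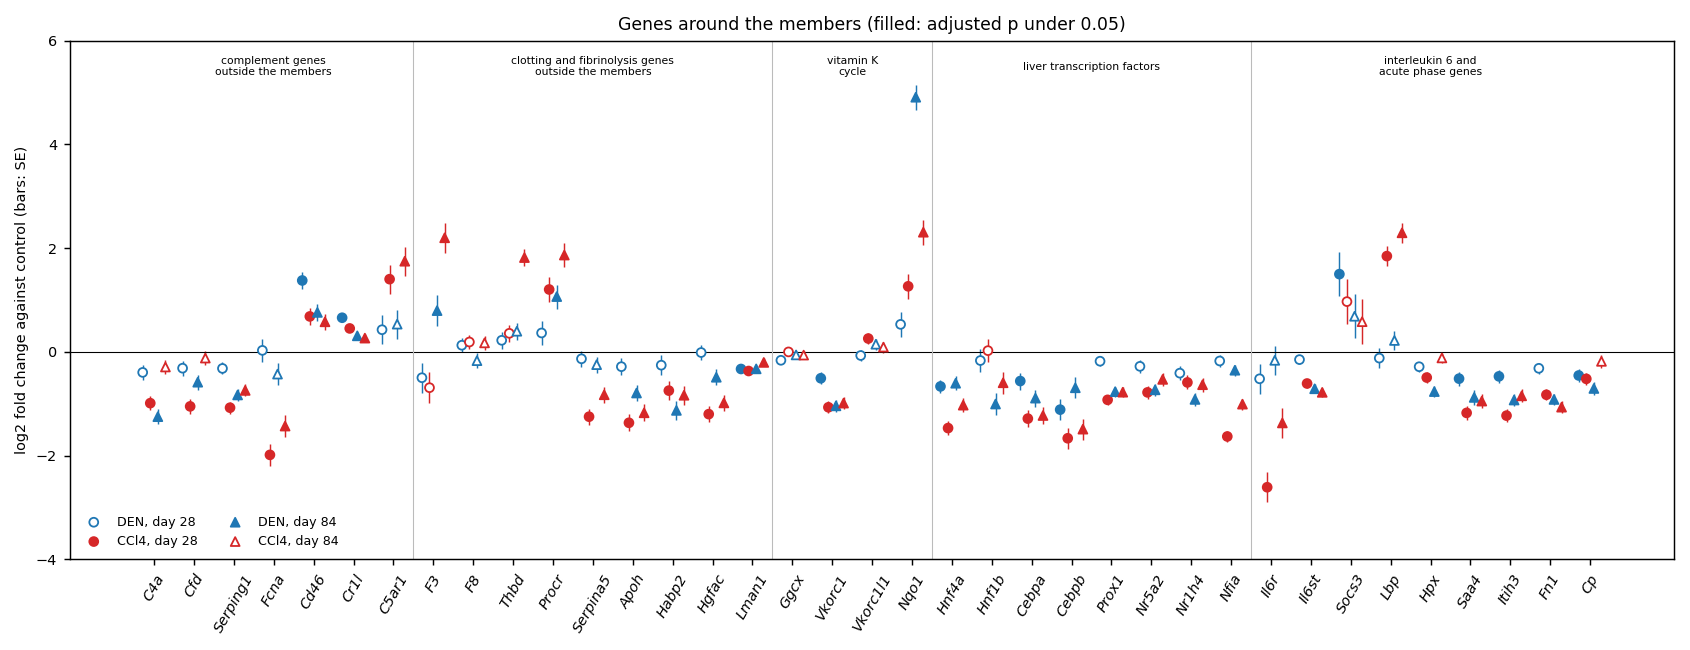
Log2 fold change against control (y axis, scaled to the 75th percentile; bars are SE, n = 3 per group) of genes from 5 related lists (x axis), with circles for day 28, triangles for day 84, DEN in blue, CCl4 in red and called values filled. F3 rises by 2.20 and Thbd by 1.82 with CCl4 at day 84, Vkorc1 is below 0 in all 4 comparisons, and Hnf4a, Cebpa and Cebpb are lower in each, although Hnf4a and Cebpb turn to 0.10 and 0.01 with DEN at day 84 when scaled to the spike-in probes.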

How the data were processed

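Total RNA of rat liver was labelled with Cy3 and hybridised to one-colour arrays, per the labels. The authors extracted spot intensity values in Agilent's Feature Extraction software (10.7.1.1), as the submitters' processing notes and the file headers state, and the deposited processed signal is background-corrected. The deposited value table of the authors is a linear ratio: within each array its values were checked and equal the processed signal over 1 constant, close to the 75th percentile. It was not used for the tests.

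Of 62976 spots, 1439 were controls and 18 probes marked as outliers were left out; 0 probes were saturated. Probes were named by RefSeq accession through the RefSeq gene table (28206 of 61537 probes, 15645 genes). From each log2 processed signal the log2 of its array's 75th percentile was subtracted. A probe was kept where all 3 arrays of some group put it well above background, and each gene was taken from its brightest kept probe (mean over 18 arrays). The 6 group means were fitted jointly with limma 3.58.1 in R 4.3.3 (lmFit and eBayes, 12 residual and 14.06 total degrees of freedom). Plots were drawn with matplotlib 3.10.9. The number of arrays limits the precision.

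The members, gene lists and comparisons were chosen with earlier results of these data known. All members could be named; values on every array are given for the 3 largest called falls and rises in each comparison with control, Proc, the fibrinogen and C1q chains and C3. Of other pathway lists, up to 3 called genes per list and comparison with the smallest adjusted p and the first 3 of a list could be named. Some genes of these lists are not reported here by name. Alternatives to these steps were normexp background correction (offset 50), no filter or a stricter filter, other scalings, all probes, slide as a block or 1 slide only, a replicate block, only the groups compared, and leaving out each array.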

Additional observations from a re-analysis of the deposited data

Results flagged for a closer look

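The 11 results here are listed because the effect of a compound differed between day 84 and day 28 by an interaction term in limma (adjusted p under 0.05), each given as the effect at day 84 minus that at day 28. For DEN these were C6 (-1.34), Mbl2 (-0.99), C1s (-0.77), C1r (-0.63), C4bpb (-0.63), Serpinf2 (-0.61), Cfb (-0.59), C9 (-0.59), C4bpa (-0.57) and Fgg (-0.54). Of these 10, C6, Mbl2, C1s, C1r and C4bpa kept the call whichever array was left out. The calls of Fgg, Serpinf2, Cfb, C4bpb and C9 were lost without 8, 6, 8, 4 and 6 single arrays of 12, with values between -0.62 and -0.46. For CCl4 it was Kng1 (1.16), which kept the call whichever array was left out, and lost it with slide as a block (0.97, adjusted p = 0.0759 in limma), when scaled to the spike-in probes (0.91, adjusted p = 0.133 in limma) and when fitted on only the groups compared (adjusted p = 0.0688 in limma). When scaled to the spike-in probes, 0 of the 11 kept the call.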

How the results depend on the processing

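The counts and the 152 called gene values, over all 9 comparisons, were recomputed under each alternative. Scaling to the arrays' median over tested probes and keeping only probes above background on all arrays kept all 152 calls, and normexp background correction, no filter, the mean of all probes, slide as a block and only the groups compared kept 147, 146, 151, 137 and 139. Under quantile normalization 120 of the 152 calls were kept, 26 were lost without a change of sign and 6 values were reversed. Scaling to the spike-in probes kept only 45 of the 152 calls. On that scale 77 were lost without a change of sign and 30 values were reversed. The cause of the reversals was not tested. Under no other alternative run did a called value change sign. Scaling to the spike-in probes turned the following values. With DEN at day 28 they were Fgb 0.0394 and C3 0.0228. With CCl4 at day 28 they were F7 0.28, Fga 0.0521, Fgg 0.13, C1r 0.18, C1s 0.0767, C2 0.41, C4bpa 0.18, C4bpb 0.13 and C9 0.32. With DEN at day 84 they were F2 0.0459, Serpinc1 0.0089, Serpind1 0.0331, Cpb2 0.11, C2 0.24, Mbl1 0.0527, Masp2 0.0478, Cfi 0.18 and C9 0.16. With CCl4 at day 84 they were Fga 0.16, Fgb 0.10, Fgg 0.17, C1r 0.13, C2 0.18, Mbl1 0.0462, C3 0.0141 and C4bpb 0.25. Between CCl4 and DEN at day 28 they were C1r 0.006 and C2 0.0696. Quantile normalization turned Fgb with DEN at day 28 to 0.0061, Fgg with CCl4 at day 28 to 0.0473, and Fga, Fgb, Fgg and C3 with CCl4 at day 84 to 0.0597, 0.13, 0.13 and 0.0441.

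The counts that moved by over 1.5 times did so as follows. On the spike-in scale, the genes higher and lower were 4 and 0 with DEN at day 28, 6 and 7 with CCl4 at day 28, 4 and 4 with DEN at day 84 and 9 and 10 with CCl4 at day 84; between the compounds at day 28, 14 were called, and between days 0 for each compound. Quantile normalization gave 1 lower with DEN and 1 higher with CCl4 at day 28, and 5 higher and 18 lower with CCl4 at day 84. Fitted on only the groups compared, 13 genes were lower with DEN at day 28, 6 differed between the compounds at day 84, 1 differed between the control days, and the effect of DEN differed between days for 27. With slide as a block, 1 gene was higher with DEN at day 28, 4 differed between the compounds at day 84 and 0 differed in the effect of CCl4 between days. On 1 slide alone, where the CCl4 group is 1 array, 1 differed between the compounds at day 84; comparisons between days could not be fitted on 1 slide. Normexp background correction gave 1 higher with DEN at day 28 and 3 for the effect of CCl4 between days, only probes above background on all arrays gave 1 and 2 for these, and the mean of all probes gave 1 higher with CCl4 at day 28.

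Leaving out 1 array at a time gave these ranges: with DEN at day 28, 0 to 0 higher and 0 to 2 lower; with CCl4 at day 28, 0 to 0 and 32 to 32; with DEN at day 84, 1 to 1 and 31 to 31; with CCl4 at day 84, 2 to 3 and 25 to 28. Between the compounds it gave 30 to 32 at day 28 and 9 to 11 at day 84, between control days 0 to 0, and for the day difference in effect 5 to 16 for DEN and 1 to 3 for CCl4. With the replicate block, 2, 32, 31 and 28 genes were lower in the 4 comparisons with control, and 151 of 152 called values kept their call. Deviations of same-numbered samples had a median correlation of -0.004 (from -0.227 to 0.433 over 45 pairs). Samples of other numbers also gave -0.004 (from -0.398 to 0.205 over 90 pairs). No pairing by number was seen, and with 3 samples per group these correlations cannot exclude one.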
